A study of Sus scrofa domesticus with 34 samples.

Results

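The genes described here encode proteins that the liver secretes into blood plasma. They are ALB (albumin), AHSG (fetuin-A), FGB and FGA (the beta and alpha chains of fibrinogen), APOC3 and APOA1 (apolipoproteins C-III and A-I). They were chosen by name, and each was looked up by the Ensembl identifier that a table of identifiers and symbols pairs with it. Of the 6 genes named, 5 were matched among the 31907 genes counted, as ENSSSCG00000008948 for ALB, ENSSSCG00000011799 for AHSG, ENSSSCG00000008997 for FGB, ENSSSCG00000015069 for APOC3 and ENSSSCG00000030921 for APOA1. FGA was not matched and has no value here. All 5 matched genes passed the filter on low counts.

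Hepatocytes are the main source of most plasma proteins. Their transcripts belong to the most abundant of the liver and are driven by shared liver transcription factors. Albumin carries hormones and fatty acids and holds water in the circulation. Fetuin-A binds calcium phosphate and keeps it in solution. Fibrinogen, made of alpha, beta and gamma chains, is the precursor of the fibrin clot. Apolipoprotein A-I is the main protein of high-density lipoprotein and is also made by the intestine, and apolipoprotein C-III slows the clearance of triglyceride-rich lipoproteins. The liver also adds the hydroxyl group that turns vitamin D3 into 25(OH)D, which travels in plasma bound to the product of GC, the vitamin D binding protein.

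The series measured 3′ ends of polyadenylated transcripts in 34 libraries labelled muscle, each from 1 pig (Sus scrofa domesticus). The animals were females or castrated males on 1 of 4 diets that differed in vitamin D. On the 25(OH)D diet, 8 pigs (4 of each sex) received 2000 IU of 25(OH)D per kg feed as growers and 1500 IU as finishers. On the combination diet, 8 pigs (4 of each sex) received cholecalciferol, which is vitamin D3, at 2000 and 1500 IU, together with 25(OH)D at 1000 IU throughout. On the increased cholecalciferol diet, 6 females and 4 castrated males received 3000 IU as growers and 2500 IU as finishers. On the standard cholecalciferol diet, the control, 8 pigs (4 of each sex) received 2000 IU as growers and 1500 IU as finishers. The labels state no age.

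Libraries held 1.34 M to 30.4 M gene counts (M for 1000000, median 6.67 M). Depth followed the numbers in the names of the deposited files, with 4.08 to 13.2 M in numbers 1 to 24, 16.8 to 30.4 M in numbers 25 to 29 and 1.34 to 2.69 M in numbers 30 to 34. Numbers 30 to 34 held 4 combination libraries and 1 25(OH)D library. Below, a run means such a stretch of consecutive file numbers, which was not taken from the labels. The labelled tissue was checked against marker lists by summed CPM, which are counts per 1000000 gene counts. The 6 neuron genes summed to 3101 to 8881 CPM over the 34 libraries, and the 7 measured skeletal muscle genes of 12 listed to 974 to 7069 CPM, so that transcripts of brain stood beside those of muscle in every library. In bulk tissue, more cells of a type and more RNA per cell cannot be told apart. Counting at the 3′ end does not scale with transcript length, and levels of different genes are compared below on that CPM scale.

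APOA1 was the most abundant of the 5 genes, with a median of 175 CPM over the 34 libraries, and its transcripts were found in all of them. ALB had a median of 28.8 CPM and FGB of 11.3 CPM. AHSG had a median of 1.82 CPM and APOC3 of 0.903 CPM. ALB, AHSG, FGB and APOA1 were counted in all 34 libraries, at their lowest with 51, 2, 27 and 205 counts. APOC3 was counted in 32 libraries. It was at 0 counts in combination replicates 3 and 7, where 3 counts would be 0.699 and 1.12 CPM. The exact Poisson 95% interval of a count of 0 reached up to 0.859 and 1.37 CPM there, for counting error only.

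ALB, AHSG and APOC3 were each high in a few libraries, while APOA1 varied little. The highest library exceeded the median of all 34 by 28.4-fold for ALB, 56.3-fold for AHSG, 17.2-fold for APOC3 and 4.90-fold for FGB. For APOA1 it exceeded the median by 1.58-fold, and the mean was 180 ± 37.0 CPM (SD, n = 34).

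**Figure D1:**
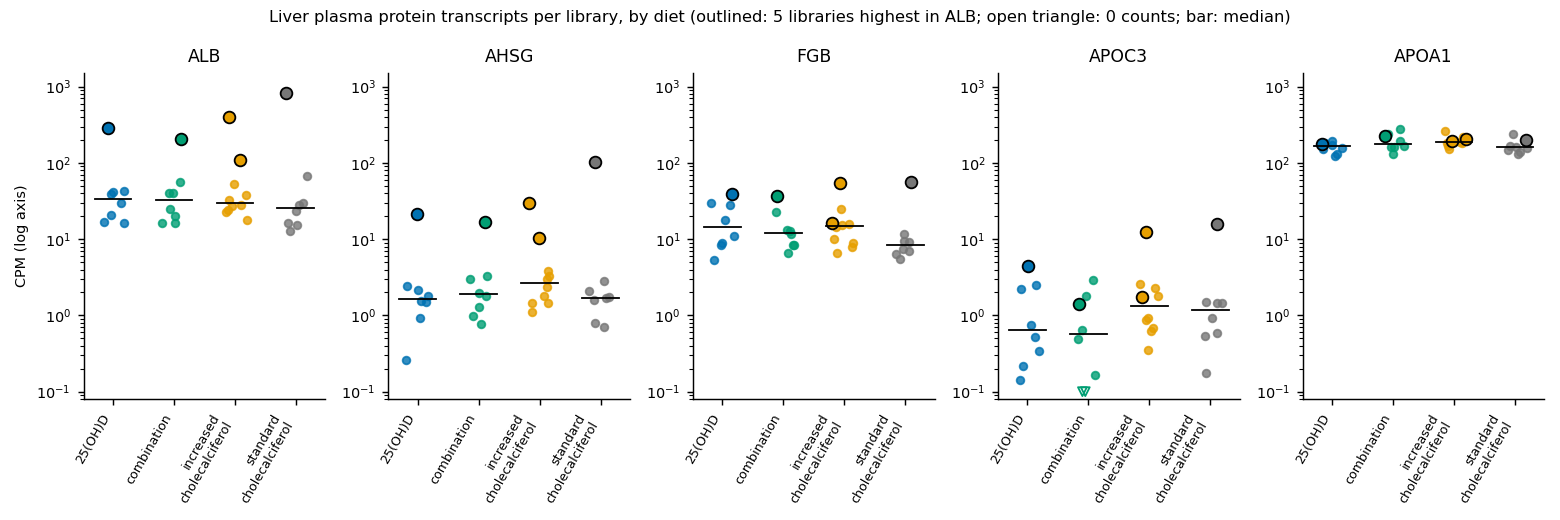
CPM of each gene in the 34 libraries (y axis, log scale) by diet (x axis). Each point is 1 library, bars are medians, outlined points are the 5 libraries highest in ALB, and open triangles mark 0 counts. The outlined libraries come from all 4 diets and lie above the other libraries in ALB and AHSG, but among them in APOA1.

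The 5 libraries highest in ALB came from all 4 diets. Standard cholecalciferol replicate 6 held 818 CPM of ALB, from 15020 counts (exact Poisson 95% interval 805 to 831 CPM). Increased cholecalciferol replicate 6 held 404 CPM, 25(OH)D replicate 5 held 290 CPM, combination replicate 6 held 208 CPM and increased cholecalciferol replicate 10 held 109 CPM. The other 29 libraries ran between 12.8 and 67.9 CPM without a comparable step. Of the 5 libraries, 4 came from females, and increased cholecalciferol replicate 10 came from a castrated male. They spread over file numbers 9, 18, 26, 27 and 32 and over depths of 2.10 to 21.0 M counts, so that no single run of files held them.

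AHSG was high in the same 5 libraries. It was at 102 CPM in standard cholecalciferol replicate 6, 30.2 CPM in increased cholecalciferol replicate 6, 21.6 CPM in 25(OH)D replicate 5, 16.6 CPM in combination replicate 6 and 10.3 CPM in increased cholecalciferol replicate 10. The other 29 libraries held 0.263 to 3.88 CPM, so that none reached the lowest of the 5. The order of the 5 libraries was the same for AHSG as for ALB. Of 14060 genes with a mean of at least 1 CPM, 5 genes (0.0356%) had all 5 of these libraries above all of the other 29. They were ALB, by which the libraries were ranked, AHSG, HPX (hemopexin, which binds heme in plasma), APCS (serum amyloid P, a plasma pentraxin) and 1 gene without a symbol. The mean was taken over all 34 libraries, so that a gene could reach 1 CPM through the 5 libraries alone. APCS had a median of 0.492 CPM. F9, another plasma protein gene, had a mean of 0.556 CPM and was left out by this minimum. It was at 1.29 to 4.46 CPM in the 5 libraries and 0 to 1.08 CPM in the other 29. The share of 0.0356% is a description of libraries picked by ALB, with no test.

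FGB stood above all other libraries in 4 of the 5. It was at 55.6 CPM in standard cholecalciferol replicate 6, 53.8 CPM in increased cholecalciferol replicate 6, 39.1 CPM in 25(OH)D replicate 5 and 36.6 CPM in combination replicate 6, while increased cholecalciferol replicate 10 held 16.4 CPM. The other 29 libraries held 5.26 to 29.8 CPM and overlapped the last of these. FGB was raised less than ALB, with 6.80 to 17.6 FGB counts per 100 ALB counts in the 5 libraries and 10.3 to 91.8 in the other 29.

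APOC3 was highest in 3 of the 5. It was at 15.6 CPM in standard cholecalciferol replicate 6, 12.3 CPM in increased cholecalciferol replicate 6 and 4.48 CPM in 25(OH)D replicate 5. In increased cholecalciferol replicate 10 it was at 1.77 CPM and in combination replicate 6 at 1.43 CPM, and both lay within the 0 to 2.94 CPM of the other 29 libraries. The value of combination replicate 6 rests on 3 counts, with an exact Poisson 95% interval of 0.294 to 4.17 CPM.

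APOA1 did not stand out in any of the 5, which held 176 to 224 CPM, while the other 29 held 123 to 277 CPM. In combination replicate 6 it came closest to a high rank, at 224 CPM, the fifth highest of 34. Per 100 ALB counts, APOA1 ran from 24.8 to 191 in the 5 libraries and from 243 to 1712 in the other 29. On the same scale AHSG ran from 7.44 to 12.5 in the 5 libraries, within the 1.57 to 16.5 of the others.

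**Figure D2:**
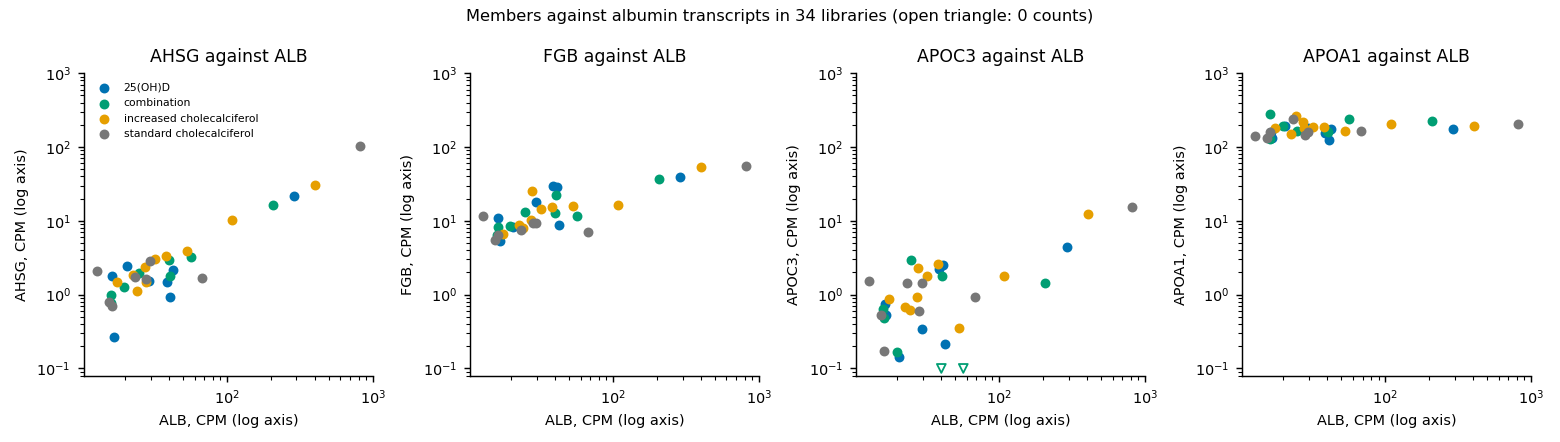
CPM of AHSG, FGB, APOC3 and APOA1 (y axes, log scale) against CPM of ALB (x axes, log scale) in 34 libraries, 1 point per library, coloured by diet; open triangles mark 0 counts. AHSG climbs with ALB up to 102 CPM at 818 CPM of ALB, while APOA1 stays between 123 and 277 CPM.

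Whether the genes rise together was tested first by correlation of log2 CPM (prior count 3) over the 34 libraries, for all 10 pairs, with permutation p-values from 100000 resamples adjusted by the Benjamini-Hochberg method. By Pearson r, all 6 pairs among ALB, AHSG, FGB and APOC3 passed an adjusted p of 0.05, and none of the 4 pairs with APOA1 did. ALB and AHSG had a Pearson r of 0.93 and a Spearman rho of 0.71 (permutation test, adjusted p = 3.33e-05 and 5e-05). ALB and FGB had an r of 0.80 and a rho of 0.72 (permutation test, adjusted p = 3.33e-05 and 5e-05). Before adjustment these p-values were 1e-05, the smallest that the permutations can give. FGB and AHSG had an r of 0.76 and a rho of 0.63 (permutation test, adjusted p = 3.33e-05 and 0.000233).

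APOC3 was tied to the others less evenly. With FGB it had an r of 0.73 and a rho of 0.61 (permutation test, adjusted p = 5e-05 and 0.00045). With ALB it had an r of 0.65 and a rho of 0.39 (adjusted p = 0.00016 and 0.0409), and with AHSG an r of 0.65 and a rho of 0.33 (adjusted p = 0.000217 and 0.0765). Its ranks therefore passed the threshold with FGB and ALB but not with AHSG. APOA1 had an r of 0.26 with ALB, 0.11 with FGB, 0.0032 with APOC3 and 0.33 with AHSG (adjusted p = 0.18, 0.611, 0.986 and 0.0816). The ranks of APOA1 and AHSG gave a rho of 0.40 (permutation test, adjusted p = 0.0385), so that this pair passed by rho but not by r.

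Correlations among ALB, AHSG, FGB and APOC3 were smaller without the libraries at the top. Leaving those out narrows the range of levels, which by itself can lower r. Without the 2 libraries farthest from the median of the first gene of a pair, ALB and AHSG kept an r of 0.86 (adjusted p = 0.0001), ALB and FGB 0.69 (adjusted p = 0.0002), FGB and AHSG 0.62 (adjusted p = 0.000667) and APOC3 and FGB 0.58 (adjusted p = 0.00155). ALB with APOC3 had an r of 0.35 and APOC3 with AHSG an r of 0.34 there (permutation test, adjusted p = 0.0847 for both), so that neither pair passed without those libraries. APOA1 and AHSG had an r of 0.51 (adjusted p = 0.00434) without the 2 libraries farthest from the median of APOA1, and so passed there. It also passed when increased cholecalciferol replicate 3 alone (r = 0.39, adjusted p = 0.0326) or combination replicate 2 alone (r = 0.42, adjusted p = 0.0206) was left out. Without all 5 libraries highest in ALB, 3 pairs remained past the threshold among 29 libraries, namely ALB with AHSG (r = 0.55, adjusted p = 0.0187), ALB with FGB (r = 0.50, adjusted p = 0.0244) and APOC3 with FGB (r = 0.49, adjusted p = 0.0244). ALB with APOC3 had an r of 0.05 and APOC3 with AHSG an r of 0.03 there. Within the 24 libraries of file numbers 1 to 24, all 6 pairs passed, with r between 0.61 for ALB with APOC3 and 0.88 for ALB with AHSG. The 5 libraries of each of the other 2 runs are too few for a value of their own.

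The same question was put to every gene in 1 fit, as the slope of its log2 level on the log2 CPM of ALB, with diet and sex in the model (edgeR quasi-likelihood F-test, 13973 genes tested without ALB). Of these, 21 genes (0.15%) passed an adjusted p of 0.05, all with a higher level where ALB was higher, and 3 of the 4 other plasma protein genes were among them. AHSG had the smallest p of all genes tested, with a slope of 1.05 (SE 0.066, adjusted p = 2.01e-13), which is close to proportional with ALB. FGB had a slope of 0.50 (SE 0.064, adjusted p = 5.74e-06) and APOC3 of 0.68 (SE 0.13, adjusted p = 0.00473). APOA1 had a slope of 0.03 with a 95% interval of -0.05 to 0.11, and did not pass (edgeR, adjusted p = 1). At an unadjusted p below 0.05 the fit gave 466 genes (3.34%).

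The number of calls also depended on the top libraries. Without the 5 libraries highest in ALB, no gene passed in edgeR, with 595 genes at an unadjusted p below 0.05. Leaving them out narrows ALB to 12.8 to 67.9 CPM, and a narrower range by itself gives fewer calls. The slope of FGB was then 0.49, against 0.50 with all libraries, and that of AHSG 0.59, against 1.05 (edgeR, unadjusted p = 0.0151 and 0.0160 without the 5). APOC3 had a slope of 0.30 there (unadjusted p = 0.491). The call of APOC3 was lost when standard cholecalciferol replicate 6 alone was left out (slope 0.66, adjusted p = 0.179), and when increased cholecalciferol replicate 6 was (slope 0.60, adjusted p = 0.0992).

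Of the other liver plasma protein genes listed, 28 of 32 were matched, 16 were tested, and 8 of those 16 rose with ALB, while none fell. Their median slope was 0.56, against -0.0043 for all genes tested. FGG, the gamma chain of fibrinogen, had a slope of 1.09 (SE 0.13), HRG (histidine-rich glycoprotein) of 1.04 (SE 0.11) and AMBP, the precursor of bikunin, of 1.01 (SE 0.11). SERPINC1 (antithrombin) had a slope of 0.78, APOH (beta-2-glycoprotein I) of 0.71, HPX of 0.64, CRP (C-reactive protein) of 0.60 and APOB, the structural protein of low-density lipoprotein, of 0.91 (edgeR, adjusted p for the 8 genes between 8.38e-08 and 0.00890).

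The most abundant genes of that list did not pass. AGT (angiotensinogen), which astrocytes also express, had a median of 236 CPM and a slope of -0.05, C3 (complement C3), also expressed by microglia, a median of 29.4 CPM and a slope of 0.10, and RBP4 (retinol binding protein) a median of 14.4 CPM and a slope of 0.22. SERPINA1 (alpha-1-antitrypsin) had a slope of -0.13 (edgeR, adjusted p = 1 for each of the 4). ITIH1 and ITIH3, which encode heavy chains of inter-alpha-trypsin inhibitors, were at 0 counts in all 34 libraries. Of the same family, ITIH2 was counted in 20 libraries and ITIH4 in all 34, with a median of 5.51 CPM for ITIH4.

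GC, the carrier of 25(OH)D in plasma, was too low for the filter and was not tested. It was counted in 27 libraries with a median of 0.579 CPM and reached 21.7 CPM in standard cholecalciferol replicate 6, the library highest in ALB. The 5 libraries highest in ALB held 1.43 to 21.7 CPM of GC and the other 29 held 0 to 2.98 CPM.

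Enzymes and regulators of hepatocytes were less abundant. Of 20 listed, 18 were matched, 8 were tested and 3 rose with ALB, while none fell. Among them were CYP2E1, a cytochrome P450, with a slope of 0.63 (SE 0.092, adjusted p = 8.24e-05) and G6PC1 (glucose-6-phosphatase), with 0.55 (SE 0.10, adjusted p = 0.00473), both from edgeR. The summed level of the 18 genes was 31.3 to 132 CPM in the 5 libraries highest in ALB and 9.09 to 66.5 CPM in the other 29, with 13 to 18 and 8 to 15 of the genes counted. The sum was above all of the other 29 in 3 of the 5. HNF4A, a transcription factor of hepatocytes, was counted in all 5, at 0.334 to 1.69 CPM, and its median over the 34 libraries was 0.142 CPM.

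Markers of other tissues were set beside the 5 libraries by their summed levels. Blood genes (7 of 10 matched, led by HBB, a haemoglobin chain) summed to 151 to 336 CPM in the 5 libraries and 109 to 936 CPM in the other 29. Choroid plexus genes (8 of 10, led by TTR, transthyretin, which the liver also makes) summed to 19.8 to 93.2 CPM and 13.3 to 187 CPM, and pancreas genes (10 of 12, led by CPA1, carboxypeptidase A1) to 2.26 to 6.18 CPM and 1.55 to 420 CPM. None of the 5 libraries was above all the others in these sums, and 3 of the pancreas genes were at 0 counts in all 34. None was above all the others either in the sum of the 28 other liver plasma protein genes. That sum was 325 to 634 CPM in the 5 libraries and 254 to 906 CPM in the other 29. AGT, which is part of it, alone ran from 176 to 776 CPM over the 34 libraries. The highest HBB (928 CPM) was in standard cholecalciferol replicate 4, the highest TTR (147 CPM) in increased cholecalciferol replicate 8 and the highest CPA1 (145 CPM) in combination replicate 3, none of them among the 5.

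Intestine genes (8 of 10 matched, which include APOA4 of the liver plasma list) summed to 4.87 to 13.01 CPM in the 5 libraries and 1.47 to 32.5 CPM in the other 29. Skeletal muscle genes summed to 1613 to 6233 CPM and 974 to 7069 CPM, neuron genes to 4712 to 7638 CPM and 3101 to 8881 CPM. Astrocyte genes (6 of 6) summed to 1746 to 2479 CPM and 1806 to 6610 CPM, and oligodendrocyte genes (5 of 6) to 2290 to 4912 CPM and 2500 to 14156 CPM. The ranges of the 5 and the other 29 libraries overlapped for every one of these lists. The part of these tissues in the levels of the plasma protein genes was not tested.

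**Figure D3:**
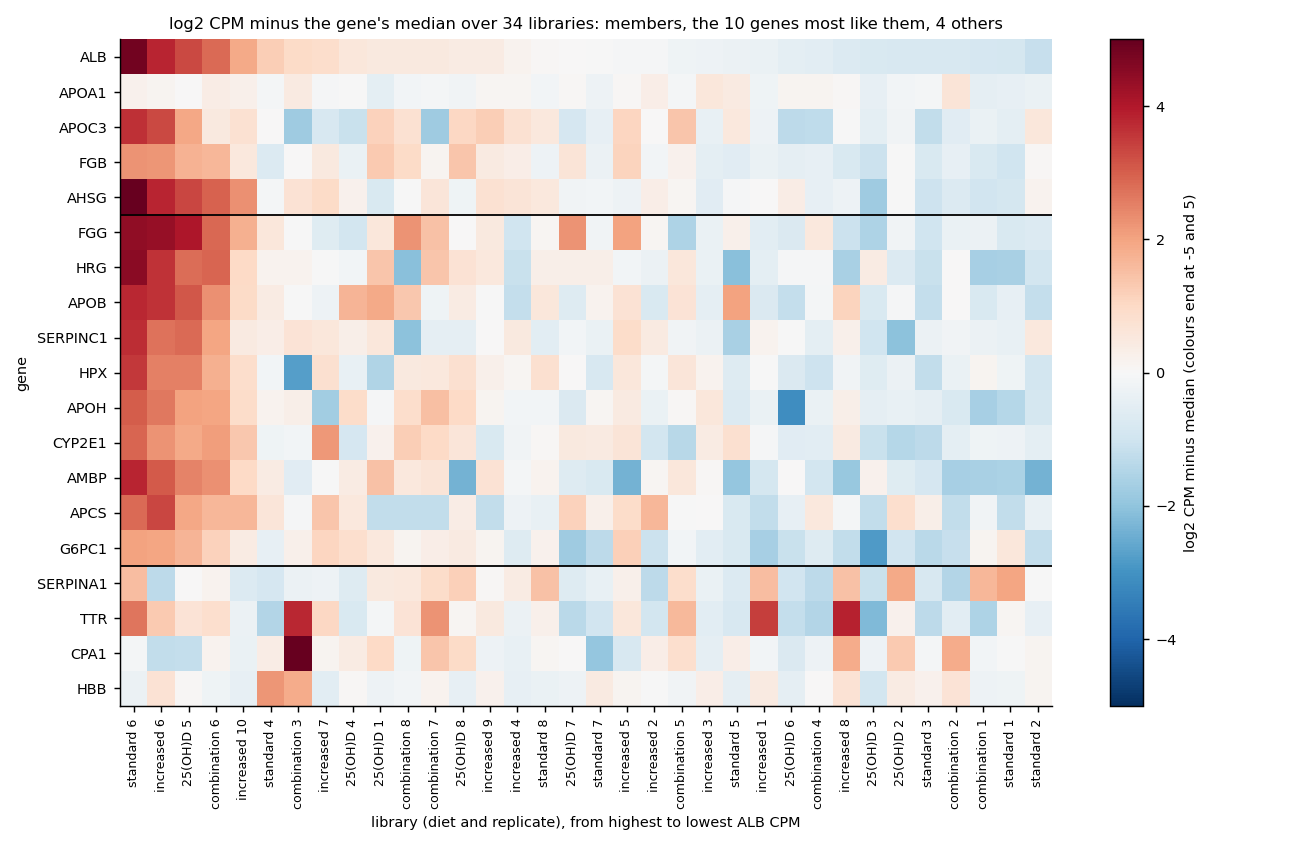
Log2 CPM of each gene minus its median over 34 libraries (colour), with libraries from highest to lowest ALB (x axis) and genes in 3 blocks (y axis), the 5 plasma protein genes, the 10 genes most like them, and SERPINA1, TTR, CPA1 and HBB. Each of the 10 genes is highest in 1 of the first 2 libraries, which hold 818 and 404 CPM of ALB, and each gene of the last block is highest in a library outside the first 5.

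The 10 genes most like the 5 were picked among genes that have a symbol and passed the filter on low counts. Of the 21 genes that rose with ALB, 6 have no symbol and could not be picked. The 10 had the highest Pearson r between their log2 CPM and the mean standardised log2 CPM of the 5 over the 34 libraries, given as a description. They were FGG (r = 0.83), HRG (0.79), APOB (0.79), SERPINC1 (0.77), HPX (0.77), APOH (0.76), CYP2E1 (0.75), AMBP (0.73), APCS (0.71) and G6PC1 (0.71). Of the 10, 7 were in the list of other liver plasma protein genes and 2 in the hepatocyte list. In the RefSeq annotation of Sscrofa11.1, which was used for gene order only, FGG, FGA and FGB are neighbours, as are APOA4, APOC3 and APOA1, and AHSG, FETUB, HRG and KNG1, with 0 other protein-coding genes between adjacent ones. APOC3 and APOA1 thus lie side by side and had an r of 0.0032 over the libraries. APOA4 (an intestinal and hepatic apolipoprotein), on the other side of APOC3, had a median of 0.129 CPM and reached 6.10 CPM.

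The diets were compared next. ALB ran from 16.4 to 290 CPM with 25(OH)D (median 34.1) and from 16.1 to 208 CPM with the combination (median 32.6). It ran from 17.7 to 404 CPM with increased cholecalciferol (median 29.9) and from 12.8 to 818 CPM with standard cholecalciferol (median 25.8). The 25(OH)D, combination and standard cholecalciferol diets each had 1 of the 5 libraries highest in ALB and increased cholecalciferol had 2. The 4 ranges shared the span from 17.7 to 208 CPM, and 3 libraries lay above it.

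AHSG ran from 0.263 to 21.6 CPM with 25(OH)D (median 1.67) and from 0.767 to 16.6 CPM with the combination (median 1.89). It ran from 1.11 to 30.2 CPM with increased cholecalciferol (median 2.70) and from 0.697 to 102 CPM with standard cholecalciferol (median 1.71). The low ends lay close together, and the top value of each diet came from the same library as that of ALB.

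FGB ran from 5.26 to 39.1 CPM with 25(OH)D (median 14.5) and from 6.52 to 36.6 CPM with the combination (median 12.1). It ran from 6.62 to 53.8 CPM with increased cholecalciferol (median 15.0) and from 5.50 to 55.6 CPM with standard cholecalciferol (median 8.33). Here too the 4 diets overlapped, and the top library of each was the one highest in ALB.

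APOC3 ran from 0.143 to 4.48 CPM with 25(OH)D (median 0.636) and from 0 to 2.94 CPM with the combination (median 0.565). It ran from 0.353 to 12.3 CPM with increased cholecalciferol (median 1.34) and from 0.174 to 15.6 CPM with standard cholecalciferol (median 1.19). Both libraries with 0 counts were of the combination diet, which also held 4 of the 5 shallowest libraries. Combination replicate 7 (2.69 M gene counts) was among these shallowest libraries, and combination replicate 3 (4.29 M) was not.

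APOA1 ran from 123 to 192 CPM with 25(OH)D (mean 161 ± 24.0, SD, n = 8) and from 129 to 277 CPM with the combination (193 ± 49.0, n = 8). It ran from 151 to 259 CPM with increased cholecalciferol (193 ± 30.1, n = 10) and from 133 to 241 CPM with standard cholecalciferol (169 ± 36.1, n = 8). By mean, the combination and increased cholecalciferol lay highest, then standard cholecalciferol, then 25(OH)D. Each diet differed from the next in that order by less than its SD.

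No plasma protein gene differed between diets past the threshold. In edgeR over 13974 genes, 0 genes (0%) passed in any of the 4 comparisons. Without adjustment, p lay below 0.05 for 452 genes (3.23%) with 25(OH)D against standard cholecalciferol and for 607 (4.34%) with the combination against standard. It did so for 1086 (7.77%) with increased against standard and for 578 (4.14%) with the combination against increased cholecalciferol. None of the 5 plasma protein genes was among these in any of the 4 comparisons. DESeq2 also called 0 genes in each, but gave AHSG no p-value in the diet and sex comparisons, so that AHSG was tested there by edgeR alone. About 699 of 13974 genes lie below an unadjusted 0.05 when nothing differs.

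Relative to standard cholecalciferol, 25(OH)D gave log2 differences of -0.42 for ALB (95% interval -1.90 to 1.06), -1.28 for AHSG (-2.96 to 0.40), 0.53 for FGB (-0.37 to 1.42) and -0.65 for APOC3 (-2.14 to 0.85). APOA1 had 0.00 there, with an interval of -0.31 to 0.31. The interval of APOA1 was thus narrow, while those of the other 4 genes left room for changes of over 1 log2 unit. The combination gave -0.72 for ALB (-2.22 to 0.79), -1.45 for AHSG (-3.22 to 0.31), 0.08 for FGB (-0.84 to 0.99), -1.66 for APOC3 (-3.33 to 0.01) and 0.14 for APOA1 (-0.17 to 0.46). The increased dose gave -0.18 for ALB (-1.56 to 1.21), -0.47 for AHSG (-2.02 to 1.09), 0.32 for FGB (-0.52 to 1.17), -0.06 for APOC3 (-1.41 to 1.30) and 0.15 for APOA1 (-0.15 to 0.45). These 3 comparisons share the control libraries.

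Between the combination and increased cholecalciferol the log2 differences were -0.54 for ALB (-1.96 to 0.88), -0.99 for AHSG (-2.69 to 0.72), -0.25 for FGB (-1.12 to 0.63) and -0.0062 for APOA1 (-0.30 to 0.29). APOC3 differed by -1.60 (-3.24 to 0.04). The smallest unadjusted p of the 5 genes in these fits of all 34 libraries was 0.0518, for APOC3 between the combination and standard cholecalciferol (edgeR, adjusted p = 0.999). Some alternative fits gave smaller ones, such as 0.0360 for the same difference of APOC3 with no filter on low counts (adjusted p = 0.764) and 0.0169 for FGB between 25(OH)D and standard cholecalciferol without the 5 libraries highest in ALB (adjusted p = 1).

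The sign of several of these differences changed with the fit. With all 34 libraries and the 3 runs of file numbers as a further term, ALB differed from the control by 1.01 with 25(OH)D, 0.54 with the combination and 0.83 with increased cholecalciferol, and AHSG by 0.74, 0.12 and 0.97 for the same diets. Signs also changed without standard cholecalciferol replicate 6. In that fit, ALB differed from the control by 0.94 with 25(OH)D, 0.62 with the combination and 1.20 with increased cholecalciferol. AHSG then differed by 0.81, 0.56 and 1.47 for the same 3 diets, and APOC3 by 0.32, -0.67 and 0.97. FGB differed by 1.05, 0.61 and 0.89, each further from 0 than with all 34 libraries, with an unadjusted p of 0.0192, 0.173 and 0.0396 (edgeR, 33 libraries, 0 genes past the threshold in each comparison). Without all 5 libraries highest in ALB, the ALB differences were 0.08 with 25(OH)D, 0.0039 with the combination and -0.03 with increased cholecalciferol. Those libraries were picked by ALB, the level compared, so that these differences are a description only.

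**Figure D4:**
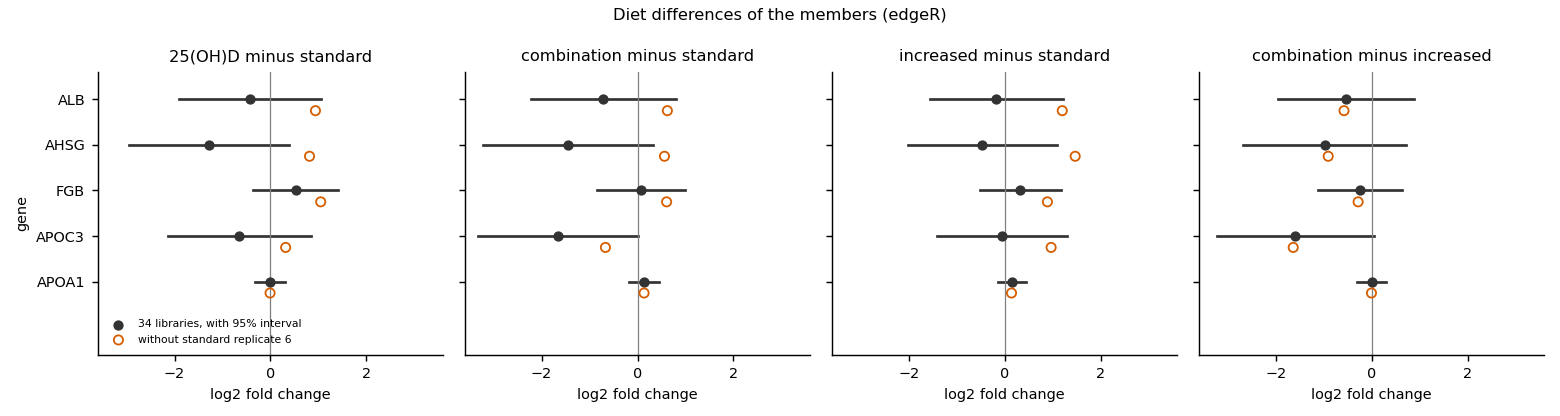
Log2 fold changes (x axis) of the 5 genes (y axis) in 4 diet comparisons from edgeR, with filled points and 95% intervals for 34 libraries, and open points without standard cholecalciferol replicate 6. All intervals reach past 0, and the open points of ALB and AHSG lie on the other side of 0 in the 3 comparisons with standard cholecalciferol.

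ALB, AHSG, APOC3 and FGB had higher averages in females than in castrated males, without passing the threshold. ALB had a highest value of 818 CPM and a median of 33.0 CPM in the 18 females, against a highest value of 109 CPM and a median of 28.8 CPM in the 16 castrated males. The log2 difference was 1.68 for ALB (SE 0.52, unadjusted p = 0.00284), 2.02 for AHSG (SE 0.61, unadjusted p = 0.00220), 1.44 for APOC3 (SE 0.54, unadjusted p = 0.0111) and 0.71 for FGB (SE 0.31, unadjusted p = 0.0271), all from edgeR. These 4 were among the 919 genes (6.58%) with an unadjusted p below 0.05. Their adjusted p-values were 0.612, 0.612, 0.678 and 0.725. APOA1 had 0.11 (edgeR, adjusted p = 0.857). Of all genes, 11 (0.0787%) passed, all lower in females, and no plasma protein gene was among them. Of the 16 other liver plasma protein genes tested, 13 had a difference above 0 (median 0.97) and 0 passed, and of the 8 hepatocyte genes 7 did (median 1.04) and 0 passed, against a median of 0.0045 for all genes. Across the 4 diet comparisons, 0 genes of these 2 lists passed.

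Of the 5 libraries highest in ALB, 4 were from females. Without the 5 libraries highest in ALB, the sex difference was 0.15 for ALB, 0.12 for AHSG, 0.18 for APOC3, 0.0019 for FGB and 0.12 for APOA1 (edgeR, adjusted p between 0.978 and 0.999). Without standard cholecalciferol replicate 6 alone, it was 1.15 for ALB, 1.15 for AHSG, 0.93 for APOC3 and 0.44 for FGB. Both fits leave out libraries picked by their ALB level, most of them from females. Such a choice by itself lowers the female values of ALB and of genes that rise with it. These fits therefore cannot show whether the sexes differ otherwise.

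The libraries also differed in markers of brain regions, and the genes were set against a regional score. The score is the mean log2 CPM of CBLN1 and CBLN3, which are expressed in granule neurons of the cerebellum, minus that of TBR1 and FEZF2, which mark neurons of the cerebral cortex. CBLN1 ran from 118 to 1172 CPM, CBLN3 from 88.7 to 1146 CPM, TBR1 from 1.74 to 62.9 CPM and FEZF2 from 0.152 to 17.8 CPM. The score ran from 2.39 to 9.63 with a median of 3.74, without separate clusters. The 5 libraries highest in ALB had scores of 8.26, 2.39, 3.57, 5.30 and 3.27, in order of falling ALB, and so reached from the lowest score of all to near the top.

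No correlation of the 5 genes with the score passed an adjusted p of 0.05 over the 34 libraries, and APOA1 came nearest, with lower levels at higher scores. Pearson r with the score was -0.05 for ALB, 0.0085 for AHSG, -0.01 for FGB and 0.09 for APOC3, with rho between -0.07 for ALB and 0.16 for APOC3 (permutation test, adjusted p over the 5 genes between 0.85 and 0.963). For APOA1, r was -0.38 and rho -0.38 (permutation test, unadjusted p = 0.0277 and 0.0270, adjusted p = 0.139 and 0.135). Without the 2 libraries with scores farthest from the median, r was -0.28 for APOA1, 0.06 for ALB, 0.11 for AHSG, 0.15 for FGB and 0.18 for APOC3. Within file numbers 1 to 24, r was -0.44 for APOA1, -0.33 for ALB, -0.27 for AHSG, -0.26 for FGB and -0.16 for APOC3 (24 libraries, permutation test, adjusted p between 0.15 and 0.459).

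The call on APOA1 depended on the scaling. With CPM on TMM-scaled library sizes, a scaling that sets aside the genes that differ most between libraries, its r with the score was -0.68 (permutation test, adjusted p = 5e-05), and without that scaling it did not pass. In edgeR, which uses TMM, with diet and sex in the model, 5262 of 13974 genes (37.7%) changed with the score, 2701 (19.3%) higher and 2561 (18.3%) lower. Unadjusted, 45.5% had a p below 0.05. APOA1 was 1 of the 2561, with a slope of -0.10 log2 per unit of the score (SE 0.019, adjusted p = 2.37e-05). Its adjusted p stayed between 1.32e-07 and 8.72e-05 over 7 alternative fits, RLE scaling and DESeq2 included. More than 1 gene in 3 changed with the score, so that a call on 1 of 5 genes is no more than the share of all genes.

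The slopes of the other 4 genes on the score did not pass. They were -0.01 for ALB (95% interval -0.31 to 0.29), 0.06 for AHSG (-0.28 to 0.40), -0.03 for FGB (-0.19 to 0.13) and 0.06 for APOC3 (-0.20 to 0.33). Leaving out standard cholecalciferol replicate 6, which was highest in ALB and had a score of 8.26, gave -0.30 for ALB (edgeR, adjusted p = 0.0266), -0.28 for AHSG (adjusted p = 0.0837), -0.14 for FGB (adjusted p = 0.113) and -0.13 for APOC3 (adjusted p = 0.479). This 1 library thus decided the call for ALB. Without all 5 libraries highest in ALB, the slope of ALB was -0.12 (adjusted p = 0.0889).

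**Figure D5:**
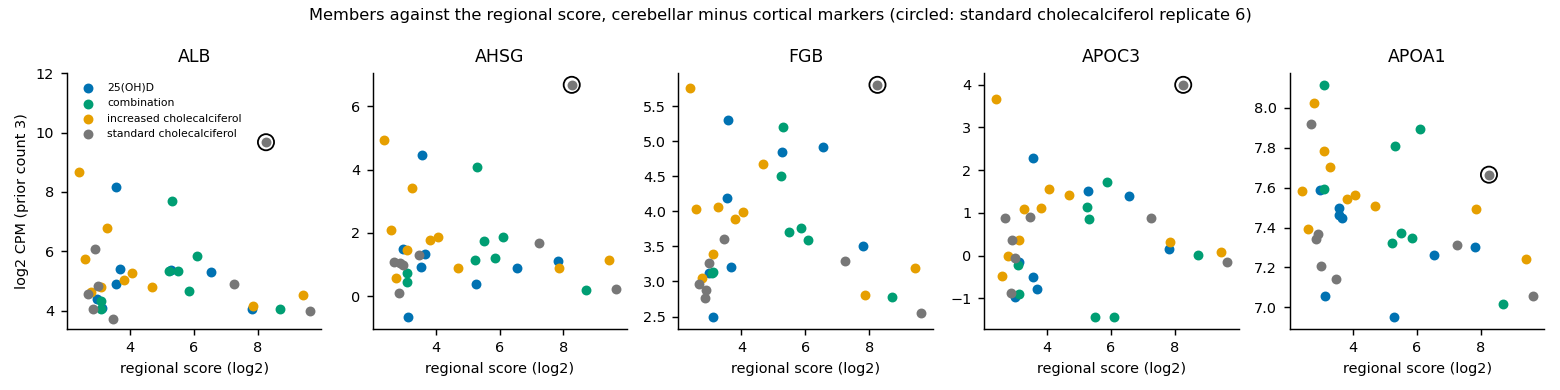
Log2 CPM (prior count 3) of the 5 genes (y axes) against the regional score (x axes) in 34 libraries, 1 point per library, coloured by diet; the circle marks standard cholecalciferol replicate 6. That library holds 818 CPM of ALB at a score of 8.26, and APOA1 has the lowest r of the 5 genes with the score, -0.38.

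Of the 16 other liver plasma protein genes tested, 1 was called higher and 1 lower with the score, against 19.3% and 18.3% of all genes tested. Their median slope was -0.01, against 0.0039 for all genes tested. SERPINA1 was higher by 0.40 per unit (SE 0.035, adjusted p = 3.26e-12) and RBP4 lower by 0.51, with a slope of -0.51 (SE 0.054, adjusted p = 5.25e-10), both from edgeR. Neither of these 2 genes passed the test of the slope on ALB. Of the 8 hepatocyte genes tested, 0 were called higher and 1 lower. Neither list was thus called more often than genes in general.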

How the data were processed

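The authors deposited unnormalized read counts, with 1 file for each library and 1 line for each gene. Frozen tissue and Trizol were used for the RNA, per the labels' protocols, and a QuantSeq 3′ forward kit served for the libraries. FastQC, TopHat, HTSeq and DESeq2 were used, per the submitters' processing notes. The tools' versions, genome build, annotation and strand setting were not given in the sources used here. Each file ends with 5 HTSeq category lines, which no library size or test includes. Of the total in a file, 16.4 to 29.9% lay outside features, 3.63 to 4.68% were ambiguous and 11.2 to 20.7% aligned to more than 1 place. Reads that overlap neighbouring genes could fall in the ambiguous category, and paralogs could lose reads to the category of multiple alignments.

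Symbols were matched to 15029 of 31907 identifiers. CPM are counts per 1000000 gene counts; log2 CPM used a prior count of 3. Genes were tested by the quasi-likelihood F-test of edgeR 4.0.16 (R 4.3.3) after TMM scaling and filterByExpr with diet as group, over all 34 libraries with diet and sex as terms, two-sided, adjusted by the Benjamini-Hochberg method over all genes tested, threshold 0.05. The slope on ALB left ALB itself out. Standard errors came from the F statistic, or for an F near 0 from the covariance of the coefficients. Correlations and their permutation p-values were computed with numpy 2.4.6 in Python 3.11.15, with 100000 resamples, two-sided. Ranks came from scipy 1.17.1. Intervals on counts and the limit of 3 counts cover counting error only. Alternatives were RLE scaling, no filter, DESeq2 1.42.0, a term for file numbers, leaving out file numbers 30 to 34, the score as a covariate, other prior counts and leaving out each library. Fits without the 5 libraries highest in ALB, without the highest one, and leaving out each library from the slopes were chosen after seeing the data. So were correlations without the 2 libraries farthest from the median on the x axis. The scripts were tested on simulated data.

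The genes and lists were chosen with earlier results of these data known. Genes named with values were the plasma protein genes, the 10 genes most like them, the 4 genes of the score, CPA1 and TTR, and the leading members of the lists; GC, HBB, HNF4A, APOA4, CRP and others of the lists were named after their values were seen. No 2 files were identical, and log2 CPM of any 2 libraries correlated at 0.988 at most. Replicate numbers follow accession order and pair nothing. The series' design text counts individuals per diet, so the spread between libraries is that between animals with its technical part. Protein and promoter sequences were not used here.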

Additional observations from a re-analysis of the deposited data

Results flagged for a closer look

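A library that lay far from the others of its diet was looked for among the 5 genes and 4 diets, by the gap of the highest or lowest library to its nearest neighbour relative to the range of the diet (Dixon's test at the 95% level). Of the 20 combinations of gene and diet, 12 held such a library. The test takes values as normally distributed and was applied to CPM without a log, which favours flags at the high end. Chance flags about 1 in 20 independent groups, but the genes were measured in the same libraries and the 12 come from only 4 of them, so that the count is not to be set against that share. All 12 were the highest library of the diet. For ALB, they were 25(OH)D replicate 5 with 290 CPM (next highest 42.4 CPM), combination replicate 6 with 208 CPM (next 56.8 CPM), increased cholecalciferol replicate 6 with 404 CPM (next 109 CPM) and standard cholecalciferol replicate 6 with 818 CPM (next 67.9 CPM). The same 4 libraries lay apart in AHSG, at 21.6 CPM (next 2.44 CPM), 16.6 CPM (next 3.26 CPM), 30.2 CPM (next 10.3 CPM) and 102 CPM (next 2.82 CPM).

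For FGB, increased cholecalciferol replicate 6 lay apart at 53.8 CPM (next 25.2 CPM) and standard cholecalciferol replicate 6 at 55.6 CPM (next 11.8 CPM). For APOC3, the same 2 libraries lay apart, at 12.3 CPM (next 2.59 CPM) and 15.6 CPM (next 1.51 CPM). No library lay apart in APOA1 in any diet.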

How the results depend on the processing

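No paired analysis was possible because the replicate numbers follow accession order and pair no animals. Aside from leaving out each library in turn, but with the fit without the library highest in ALB included, 49 values of the plasma protein genes were recomputed 324 times: 266 kept direction and side of the threshold, 48 changed sign, 8 lost and 2 gained a call. Several of those signs belong to values near 0, and the cause was not tested for any. APOC3 rests on few counts, 0 to 6 in the combination libraries, and the deepest of these held 5.

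Counts of calls moved as follows. A term for file numbers gave 1 gene for the combination against increased cholecalciferol and 18 for sex; without file numbers 30 to 34 the combination against increased cholecalciferol also gave 1. With no filter, 58 genes changed with ALB; without the 5 libraries highest in ALB, 0 did in edgeR (595 at an unadjusted p below 0.05), and 3 pairs of the plasma protein genes correlated past the threshold. On TMM sizes, 1 gene correlated with the score. DESeq2 gave 26 genes changing with ALB.

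With a term for file numbers, the log2 difference of 25(OH)D from standard cholecalciferol was 1.01 for ALB, 0.037 for APOC3 and 0.74 for AHSG, that of increased cholecalciferol 0.83, 0.58 and 0.97, and that of the combination 0.54 for ALB, -0.071 for FGB and 0.12 for AHSG. APOA1 was at 0.16 for the combination against increased cholecalciferol, and the slopes on the score were -0.017 for APOC3 and -0.10 for AHSG. Without file numbers 30 to 34, FGB was at -0.43 for the combination against standard, APOA1 at 0.14 for the combination against increased cholecalciferol, and the slope of ALB on the score at 0.024.

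Without the 5 libraries highest in ALB, ALB was at 0.081 for 25(OH)D and 0.0039 for the combination against standard, and at 0.034 for the combination against increased cholecalciferol. APOA1 was at -0.015 for 25(OH)D against standard and 0.027 for the combination against increased; APOC3 and AHSG were at 0.18 and 0.31 for increased against standard. AHSG had a slope of -0.075 and an r of -0.072 on the score, and APOA1 an r of -0.20 with APOC3 and -0.095 with FGB. Without the library highest in ALB alone, 25(OH)D against standard gave 0.94 for ALB, 0.32 for APOC3, 0.81 for AHSG and -0.0084 for APOA1. Increased against standard gave 1.20 for ALB, 0.97 for APOC3 and 1.47 for AHSG, and the combination against standard 0.62 for ALB and 0.56 for AHSG.

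APOA1 in 25(OH)D against standard, at 0.00, was at -0.0079 with no filter and -0.047 with the score as a covariate, which also gave 0.10 for APOC3 in increased against standard and 0.089 for APOA1 in the combination against increased. DESeq2 gave 0.013 for APOC3 in increased against standard. Without the 2 libraries farthest from the median, r with the score was 0.056 for ALB and 0.15 for FGB. In file numbers 1 to 24 it was -0.16 for APOC3 and -0.27 for AHSG, and APOA1 with APOC3 had -0.070. On TMM sizes AHSG had -0.047 with the score and APOA1 with APOC3 -0.0086, and with a prior count of 1 that pair had -0.026.

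Leaving out 1 library at a time gave 15 to 25 genes changing with ALB, 4723 to 5440 with the score and 6 to 7 correlated pairs. Slopes on the score ran from -0.30 to 0.082 for ALB, -0.28 to 0.17 for AHSG, -0.14 to 0.023 for FGB, -0.13 to 0.18 for APOC3 and -0.11 to -0.10 for APOA1. The r with the score ran from -0.26 to 0.031 for ALB, -0.21 to 0.095 for AHSG, -0.14 to 0.087 for FGB and -0.055 to 0.20 for APOC3, and r of APOA1 with APOC3 from -0.066 to 0.082.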
